A study of Macaca mulatta with 8 samples.

Results

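The genes of translation factors and aminoacyl-tRNA synthetases were followed in rhesus macaque oocytes that had reached metaphase II, when an egg is ready to be fertilized. Members were probe sets whose only gene symbol in the platform annotation starts with EIF or EEF, or names a synthetase by 1 amino acid letter, or EP, followed by ARS, ARS1 or ARS2. The rule took 140 of 52766 non-control probe sets, which stand for 67 of 14132 genes with probe sets of a single symbol. The oocytes had matured in culture on 4 arrays (in vitro) and in the animal on 4 arrays (in vivo), and the study asked how maturation in culture affects their transcripts. Each array carried RNA from a pool of 4 oocytes, amplified in 2 rounds. The labels name neither the animals, nor the culture medium, nor any hormone treatment, so a p-value here speaks only of the spread from pool to pool, which may be technical. EEF1A1 was present only as a control sequence, and EIF4E1B, EIF4EBP1, EIF4EBP2, EIF2AK4, EIF1AX, EEF2K, EPRS1 and NARS1 were not analysed here.

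Protein synthesis starts when the eIF4F complex binds the cap of an mRNA, eIF3 recruits the small ribosomal subunit, and eIF2 delivers the initiator tRNA. Elongation factors then bring charged tRNAs to the ribosome and move it along the mRNA, and each charged tRNA is made by the synthetase of its amino acid. A maturing oocyte hardly transcribes its genes, so meiosis is driven largely by the translation, storage and decay of mRNAs made earlier.

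The values were MAS5 signals, linear array intensities scaled to a common mean per array. A signal counted as above background when it passed the 95th percentile of 59 control probe sets on the same array with no matching transcript added. This background lay between 15.7 and 27.0, and between 53.8% and 60.9% of all probe sets were above it in vitro, against 49.9% to 59.9% in vivo. All 10 oocyte markers found on the array were above background on all 8 arrays, and their summed signal ran from 49578 to 63082 in vitro and from 49668 to 80915 in vivo. Their median log2 fold change was 0.04, and none passed an adjusted p of 0.05. NLRP5 was lower on every in vitro array, at -1.03, and BMP15 higher on every one, at 0.30 (limma adjusted p = 0.193 and 0.570). Of 15 markers of granulosa and cumulus cells, 11 were above background on all arrays and none was below it on all. Their sum ran from 22776 to 31608 in vitro and from 23461 to 26161 in vivo. INHBA and STAR, which serve hormone production, were the 2 of them that passed an adjusted p of 0.05, both higher in vitro. Their log2 fold changes were 3.08 and 2.60 (limma adjusted p = 0.00216 and 0.00783). HSD3B2, EFEMP1 and INHA were higher too, at 2.28, 1.96 and 0.59, but did not pass (limma adjusted p = 0.204, 0.234 and 0.370). The median over the 15 markers was 0.03. The 7 blood and immune markers were dim, with none above background on all arrays, and their sum ran from 88.3 to 157 in vitro and from 181 to 280 in vivo. Of 8 theca and stroma markers, 1 was above background on all arrays, CYP17A1 was above it on none, and the sum ran from 494 to 1145 in vitro and from 293 to 506 in vivo. No marker of these 2 lists passed (smallest limma adjusted p = 0.0998, for COL6A1). Of the 5 tested theca and stroma markers, DCN alone was lower in vitro, at a log2 fold change of -1.85 (limma adjusted p = 0.266). The highest sum in vitro held a TAGLN signal of 616 on replicate 1, against 77.7 to 121 on the other in vitro arrays. In such pools fewer cells of another type and less RNA per cell cannot be told apart, and the part of RNA from other cell types in the values below was not tested.

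No member passed the test. Of the 140 member probe sets, 114 were bright enough to be tested, and they covered 65 of the 67 genes. Among them 0 were called at a limma adjusted p of 0.05, against 0.148% of all 26378 tested probe sets. By direction 0 were higher in vitro, against 0.0986% of all, and 0 lower, against 0.0493% of all. The smallest adjusted p of a member was 0.301, for EIF3A. At an unadjusted p under 0.05 there were 9 members (7.89%), against 10.3% of all tested probe sets. With a difference of at least 2-fold as a further condition there were 3 members (2.63%), against 2.76% of all. The 4 arrays of a group did not overlap with those of the other group at 6 members (5.26%), against 6.33% of all. Each of these shares was at or below that over all tested probe sets.

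The intervals show how large a difference could have gone unseen. At 76 of the 114 members (66.7%) the 95% interval of the fold change lay within 2-fold in either direction, against 54.8% of all tested probe sets. The intervals of the remaining 38 members reached past 2-fold, so they do not exclude a difference of that size.

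By sign alone, 70 of the 114 members (61.4%) had a lower mean log2 signal in vitro, against 49.5% of all tested probe sets, and 44 (38.6%) a higher one, against 50.5%. The members' median log2 fold change was -0.10, against 0.00 over all tested probe sets. Taking 1 probe set a gene, the brightest, the median was -0.12 over 65 genes, against -0.02 over 10244 genes. Both medians rested in large part on 1 array, since leaving out in vivo replicate 3 moved them to -0.01 and -0.03. Members of 1 gene, and members on the same arrays, are not independent, and these shares carry no test.

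**Figure D1:**
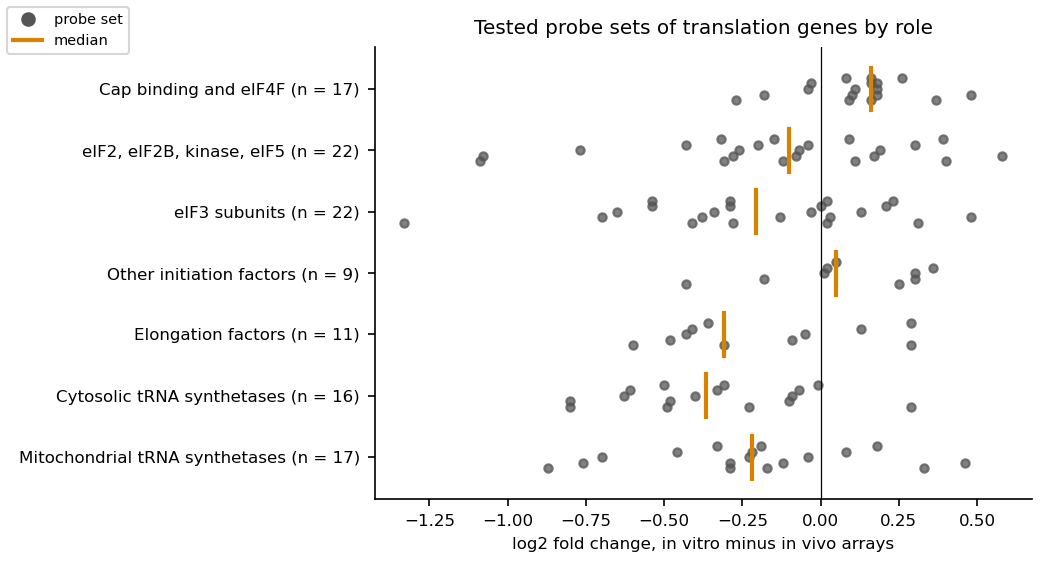
Log2 fold change, in vitro minus in vivo, of the 114 tested probe sets (points) in 7 role groups, with the median of each group as a bar. The median was 0.16 for cap-binding factors and -0.37 for cytosolic synthetases, and 0 probe sets passed an adjusted p of 0.05.

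The cap-binding group had the narrowest range of differences. Its 17 tested probe sets, from 8 genes, had log2 fold changes from -0.27 to 0.48 and a median of 0.16 (0.08 with quantile normalization and 0.10 with median centring), and the 95% intervals of all 17 lay within 2-fold. EIF4E, which encodes the cap-binding protein, had signals of 63.3, 57.6, 92.6 and 26.0 in vitro, against 58.1, 52.3, 68.9 and 78.9 in vivo. The groups overlapped, and the log2 fold change was -0.18 ± 0.34 (SE; limma adjusted p = 0.889). It became 0.11 without in vitro replicate 4, the dimmest array for this gene. EIF4E2, whose product binds caps and can repress translation, averaged 273 ± 31.8 in vitro and 347 ± 129 in vivo (SD, n = 4 each). EIF4E3, a further cap-binding relative, averaged 793 ± 52.0 in vitro and 713 ± 79.6 in vivo at its brightest probe set.

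Partners of EIF4E overlapped between the groups too. EIF4ENIF1 encodes 4E-T, a protein that carries EIF4E and takes part in storing repressed mRNAs in oocytes. It had 2468, 2273, 2322 and 2613 in vitro, against 2040, 2630, 2544 and 1814 in vivo. Its log2 fold change was 0.11, with a 95% interval from -0.25 to 0.47. The scaffold gene EIF4G1 averaged 676 ± 86.6 in vitro and 602 ± 127 in vivo. EIF4G2, a scaffold that lacks the EIF4E site, had 11070, 12204, 11884 and 9676 in vitro, against 8633, 10945, 9295 and 13412 in vivo. The RNA helicase gene EIF4A2 had 5 tested probe sets, all with positive log2 fold changes, from 0.08 to 0.48. The highest was at a probe set with 578, 548, 463 and 845 in vitro, against 460, 411, 536 and 318 in vivo (limma adjusted p = 0.500).

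The eIF2 group supplies the initiator tRNA and holds the step that stress kinases block. Its 22 tested probe sets had a median log2 fold change of -0.10, with 8 positive and 14 negative, and none passed. Leaving out in vivo replicate 3 gave a median of 0.00 with 10 negative, and leaving out in vivo replicate 4 gave -0.24. EIF2S1, the subunit whose phosphorylation slows initiation, had 4 tested probe sets with log2 fold changes of 0.39, -0.04, -0.15 and -0.20. At the first of these the signals were 627, 578, 565 and 679 in vitro, against 306, 564, 420 and 633 in vivo. EIF2S2, the beta subunit, had 5 tested probe sets between -0.32 and 0.58. EIF2B1 and EIF2B5, subunits of the exchange factor that recharges eIF2, had 0.40 and -0.43 at the named probe sets, with opposite signs and intervals that both held 0. EIF2AK3, encoding the kinase PERK of the endoplasmic reticulum, lay under the brightness limit of the test, with 13.0 ± 6.94 in vitro and 17.3 ± 8.60 in vivo.

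EIF5, whose product triggers GTP hydrolysis by eIF2 at the start codon, differed most within this group, and its probe sets did not move alike. At probe set MmugDNA.38360.1.S1_s_at it had 158, 71.5, 169 and 163 in vitro, against 406, 174, 672 and 149 in vivo. At MmugDNA.38442.1.S1_s_at it had 68.0, 73.5, 105 and 110 in vitro, against 303, 115, 501 and 80.1 in vivo. In vivo replicates 1 and 3 were high at both, while in vivo replicates 2 and 4 lay close to or within the in vitro range, so the groups overlapped.

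The log2 fold changes were -1.08 ± 0.41 and -1.09 ± 0.44 (SE; limma adjusted p = 0.389 and 0.406), and another EIF5 probe set, with the same order of in vivo arrays, had -0.77. The brightest EIF5 probe set had 1231, 1098, 1168 and 1202 in vitro, against 1435, 1318, 1684 and 1225 in vivo, a log2 fold change of -0.26. The remaining one had -0.31. Probe sets whose names end in _s_at can match more than 1 transcript.

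**Figure D2:**
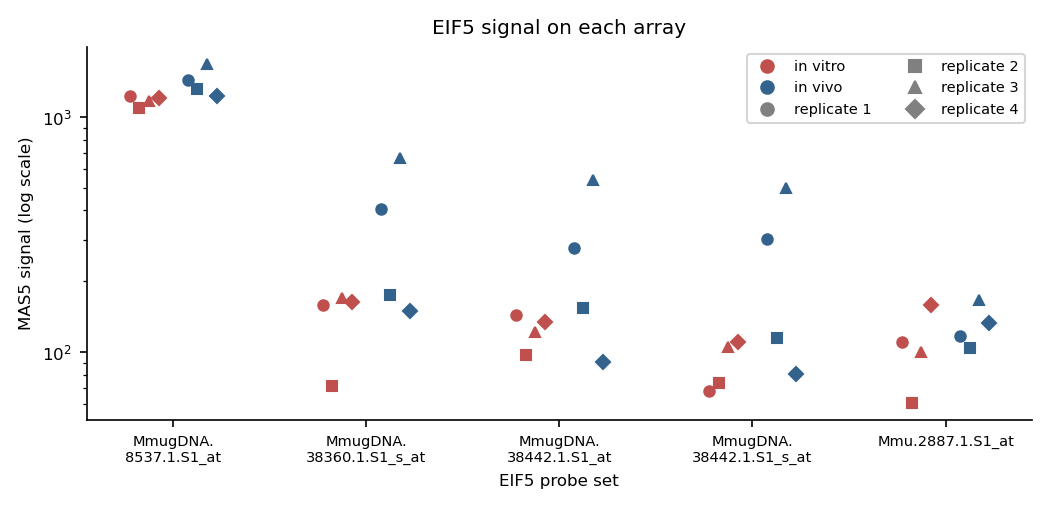
MAS5 signal (log axis) of the 5 tested EIF5 probe sets on each array, in vitro left of in vivo at each, with a marker shape for each replicate number. At 4 probe sets in vivo replicates 1 and 3 stand above every other array, and the log2 fold changes run from -1.09 to -0.26, which is that of the brightest probe set.

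The eIF3 complex, the scaffold that joins mRNA and small subunit, had 22 tested probe sets from 11 genes with a median log2 fold change of -0.20. The median was -0.03 when in vivo replicate 1 was left out, -0.10 when in vivo replicate 3 was, -0.11 when in vitro replicate 2 was, and 0.00 among the probe sets above the 75th percentile of mean signal. EIF3A, its largest subunit, had 217, 223, 257 and 269 in vitro, against 444, 528, 375 and 279 in vivo at probe set MmugDNA.10928.1.S1_at. Every in vitro array lay below every in vivo array, by a narrow margin to in vivo replicate 4. The log2 fold change was -0.70 ± 0.22 (SE; limma adjusted p = 0.301), but its other tested probe sets had -0.54 and 0.23, so the gene as a whole had no single direction. EIF3B had 20.7, 3.0, 40.1 and 3.0 in vitro, against 56.9, 28.8, 44.9 and 46.7 in vivo, and was above background on 1 in vitro array and all in vivo arrays. Its in vitro mean of 16.7 lay under the test's limit of 26.0 for the mean signal, so it was tested only because of its in vivo signals. The fitted log2 fold change of -1.33 ± 0.52 (SE; limma adjusted p = 0.396) therefore rests on a group at background. In all, 4 of the 114 tested members had a group mean under that limit.

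Other eIF3 subunits lay nearer to each other. EIF3E had 6490, 6408, 5660 and 6232 in vitro, against 5597, 5722, 4442 and 4360 in vivo, with a log2 fold change of 0.31 and 0.48 at its second probe set. EIF3F was lower on every in vitro array, at 2778, 2909, 2678 and 2313, against 3899, 3238, 3014 and 2938 in vivo. The difference was small, with a log2 fold change of -0.29 ± 0.16 (SE; limma adjusted p = 0.566). EIF3K averaged 44.8 ± 18.8 in vitro and 75.5 ± 28.9 in vivo.

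Among the remaining initiation factors, 7 of 9 tested probe sets had positive log2 fold changes. EIF1, which guards start codon choice, was the only member with an unadjusted p under 0.05 and a higher mean in vitro. It had 8841, 8025, 6793 and 7274 in vitro, against 6132, 5439, 6831 and 5693 in vivo (log2 fold change 0.36 ± 0.15 SE, limma adjusted p = 0.418). A second EIF1 probe set of similar name had 0.05. EIF1B, its close relative, had 3764, 3458, 3321 and 3193 in vitro, against 2891, 2944, 3073 and 2262 in vivo. It was the single member whose in vitro arrays all lay above the in vivo arrays, with a log2 fold change of 0.30 (limma adjusted p = 0.533). One such member of 114 (0.877%) compares with 3.18% of all tested probe sets.

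EIF5B joins the ribosomal subunits. At 1 of its brighter probe sets it had 6224, 5065, 5710 and 5033 in vitro, against 3886, 4661, 2856 and 7585 in vivo. In vivo replicates 1 and 3 were the dimmest arrays at this probe set, and replicate 4 the brightest. Dimmer EIF5B probe sets had another order, with 177, 328, 554 and 267 in vivo at one and 89.2, 200, 315 and 128 at the other. Their log2 fold changes were 0.01 and -0.18. EIF6, which keeps ribosomal subunits apart, ran opposite to the brighter EIF5B probe set. It had 552, 525, 326 and 425 in vitro, against 701, 462, 1013 and 410 in vivo.

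**Figure D3:**
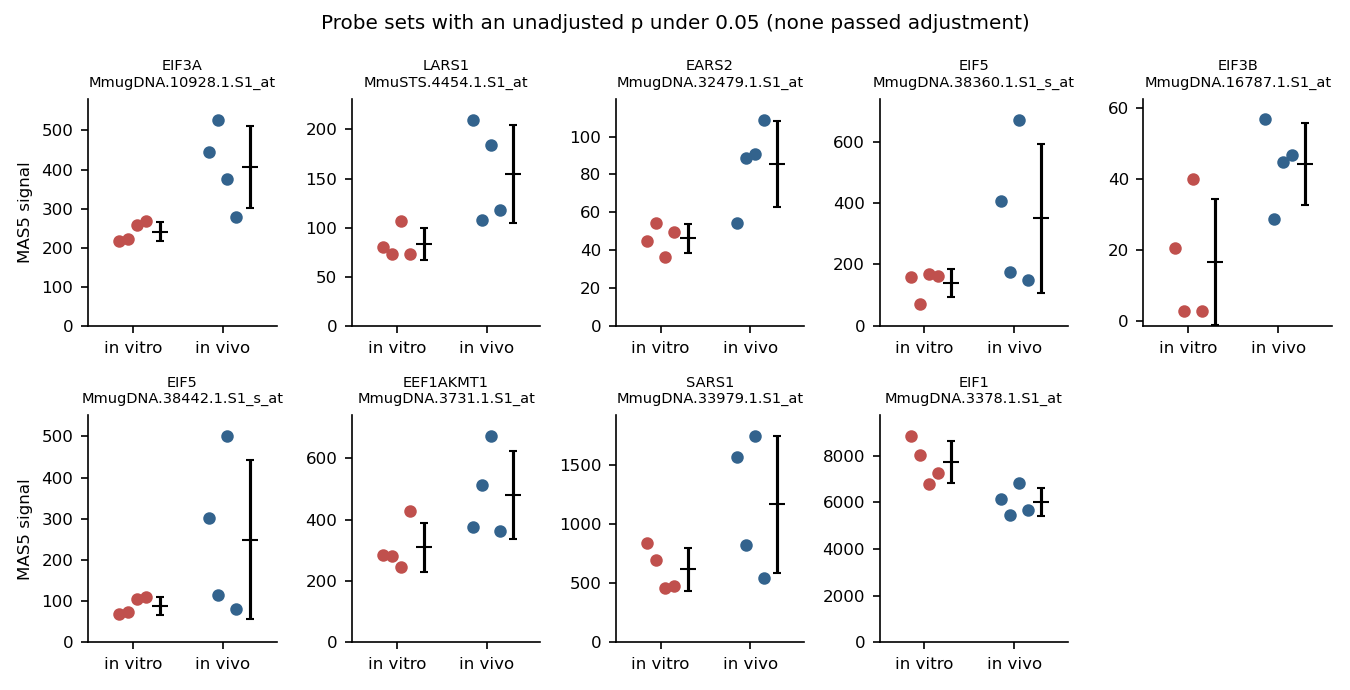
MAS5 signals on the 4 in vitro and 4 in vivo arrays (points) with mean and SD (bars) for the 9 member probe sets with an unadjusted p under 0.05, from linear axes that include 0. At 8 of them the in vitro mean is lower, at EIF1 it is higher, and the smallest limma adjusted p among them is 0.301.

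Of the 9 members at an unadjusted p under 0.05, 8 had the lower mean in vitro (7.02% of 114), against 5.61% of all tested probe sets, and 1 the higher (0.877%), against 4.66%. They came from 8 genes, namely EIF3A, LARS1, EARS2, EIF5 at 2 probe sets, EIF3B, EEF1AKMT1, SARS1 and EIF1. Leaving out in vitro replicate 2 gave 4 such members, and leaving out in vivo replicate 4 gave 23. The 3 members that also differed by 2-fold, EIF3B and the 2 of EIF5, all had lower means in vitro (2.63%, against 1.47% of all). EIF3B entered this count only through its in vivo signals. The count was 0 with the median signal as pseudocount and 1 with array weights. None of all 114 was higher by that rule, against 1.29% of all. Of the 8 fits that left out 1 array, those without in vitro replicate 2 or in vivo replicate 1 gave 0 such members. Leaving out in vivo replicate 3 gave 1, and leaving out in vivo replicate 4 gave 5. Over all tested probe sets, the calls at an adjusted p under 0.05 moved too. They were 39 with all arrays, 24 without in vitro replicate 2 and 104 without in vivo replicate 4. Shares over all at an unadjusted p were not counted in the alternative fits, so the members' counts there are not set against the rest of the array.

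The elongation group held 11 tested probe sets with a median log2 fold change of -0.31, of which 8 were negative. The median was -0.17 without in vitro replicate 1 and -0.18 when in vivo replicate 3 was left out. Of these probe sets, 6 stand for elongation factors and their subunits or partners, with 5 negative and a median of -0.33. The other 5 stand for 4 lysine methyltransferases that modify such factors, with 3 negative and a median of -0.05. EEF2, the translocase, had 261, 283, 279 and 217 in vitro, against 276, 231, 184 and 261 in vivo, with a log2 fold change of 0.13 and a 95% interval from -0.32 to 0.58. EIF5A, which helps ribosomes past difficult peptide bonds, was lower on every in vitro array, with 149, 163, 137 and 169 in vitro, against 262, 208, 188 and 177 in vivo. Its log2 fold change was -0.41 ± 0.21 (SE; limma adjusted p = 0.546). EEF1A2, a tissue-restricted form of the tRNA carrier, averaged 38.6 ± 5.34 in vitro and 59.3 ± 20.8 in vivo. EEF1AKMT1, a methyltransferase of that carrier, had 286, 282, 246 and 427 in vitro, against 377, 511, 672 and 362 in vivo (limma adjusted p = 0.412). EEFSEC, the factor that delivers selenocysteine, averaged 134 ± 33.8 in vitro and 171 ± 17.0 in vivo.

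EEF1A1, the main tRNA carrier, was read by control probe sets along its transcript. At the 3′ end it had 11523, 15363, 12475 and 11749 in vitro, against 11083, 12365, 11188 and 15713 in vivo. At the 5′ end it had 2947, 3126, 2913 and 3274 in vitro, against 4097, 1606, 4118 and 1223 in vivo. The log2 differences between groups were 0.03 and 0.35 (exact two-sided permutation p = 0.743 and 0.457 over 70 assignments). The in vitro arrays were alike at the 5′ end, whereas the in vivo arrays fell into a bright and a dim pair. In the middle of the transcript, a probe set ending in _s_at, like the 5′ one, had 3446, 1467, 3415 and 1226 in vivo. Another, ending in _x_at like the 3′ one, had 9926, 8942, 9983 and 9145 in vivo. The 3′ and 5′ probe sets thus differ in type as well as in position.

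The ratio of 3′ to 5′ signal was taken as a measure of how much of the transcript survived extraction and amplification. Since its probe sets also differ in type, the ratio does not measure survival alone. For EEF1A1 it was 3.91, 4.91, 4.28 and 3.59 in vitro, against 2.70, 7.70, 2.72 and 12.8 in vivo. The group means did not differ beyond this spread (exact two-sided permutation p = 0.600, and 0.600 after adjustment over 3 control genes). For beta-actin the ratio averaged 79.1 ± 24.3 in vitro and 96.1 ± 42.8 in vivo, and for GAPDH 32.6 ± 8.19 in vitro and 28.2 ± 11.6 in vivo (SD, n = 4 each). The exact permutation p-values were 0.543 and 0.400. On in vivo replicates 1 to 4 the beta-actin ratio was 75.3, 150, 51.2 and 108, and the GAPDH ratio 24.4, 45.3, 19.2 and 23.9. For beta-actin, replicates 1 and 3 again had the lower ratios in vivo. For GAPDH they did not, since replicate 4 lay below replicate 1.

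Cytosolic tRNA synthetases had mostly lower means in vitro, and none passed the test. Of 16 tested probe sets from 9 genes, 15 were lower by sign, with a median log2 fold change of -0.37, against 49.5% lower and a median of 0.00 over all tested probe sets. LARS1, the leucine enzyme that also serves as a leucine sensor, was lower on every in vitro array at probe set MmuSTS.4454.1.S1_at. It had 80.8, 73.3, 107 and 73.1 in vitro, against 210, 108, 184 and 118 in vivo, a log2 fold change of -0.80 ± 0.27 (SE; limma adjusted p = 0.327). Its other tested probe sets had -0.23 and -0.09. Leaving out in vivo replicate 3 turned the 15 lower probe sets of the group into 10. Its median was -0.28 in that fit and -0.65 when in vivo replicate 4 was left out.

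SARS1, the serine enzyme, had 840, 695, 459 and 476 in vitro, against 1565, 820, 1743 and 540 in vivo (log2 fold change -0.80 ± 0.33 SE, limma adjusted p = 0.416). KARS1, the lysine enzyme of cytoplasm and mitochondria, had 590, 527, 533 and 510 in vitro, against 809, 554, 1687 and 283 in vivo. For both genes the highest signals came from in vivo replicates 1 and 3, and replicate 4 was the lowest in vivo array. WARS1, the tryptophan enzyme, averaged 201 ± 44.4 in vitro and 289 ± 68.8 in vivo, and YARS1, the tyrosine enzyme, 160 ± 39.2 in vitro and 230 ± 58.3 in vivo. HARS1, the histidine enzyme, averaged 248 ± 47.6 in vitro and 326 ± 14.3 in vivo at one probe set (limma adjusted p = 0.523), while its brighter one had a log2 fold change of -0.07. GARS1, the glycine enzyme, had the only positive value, 0.29.

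Mitochondrial synthetases, which charge the tRNAs of the organelle's own ribosomes, had 17 tested probe sets from 14 genes with a median log2 fold change of -0.22. Leaving out in vivo replicate 3 brought it to -0.06, and the probe sets above the 75th percentile of mean signal had -0.12. EARS2, the glutamate enzyme, was lower on every in vitro array at 1 probe set, with 44.7, 54.2, 36.2 and 49.6 in vitro, against 54.6, 88.6, 90.7 and 109 in vivo. Its log2 fold change was -0.76 ± 0.29 (SE; limma adjusted p = 0.374), and its other tested probe set had -0.17. AARS2, the alanine enzyme, averaged 23.3 ± 13.7 in vitro, under the limit of 26.0, and 42.2 ± 18.4 in vivo. NARS2, the asparagine enzyme, had 590, 681, 1184 and 1126 in vitro, against 546, 491, 1049 and 530 in vivo. RARS2, the arginine enzyme, averaged 629 ± 137 in vitro and 797 ± 310 in vivo at its brightest probe set, a log2 fold change of -0.29. At a dim one it had 7.30, 3.70, 70.7 and 81.4 in vitro, against 53.6, 49.7, 63.1 and 48.3 in vivo. The in vitro arrays fell into a dim and a bright pair at this dim probe set only.

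Of the 6 members whose groups did not overlap, the in vitro arrays were the lower ones at 5, namely EIF3A, EIF3F, EIF5A, LARS1 and EARS2. That is 4.39% of 114, against 3.15% of all tested probe sets.

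Members varied more between in vivo pools than between in vitro pools. The median SD of a member's log2 signal was 0.28 in vitro and 0.43 in vivo, and the in vivo SD was the larger one at 84 of 114 members (73.7%). Over all tested probe sets the medians were 0.32 in vitro and 0.43 in vivo, and the in vivo SD was larger at 66.4%. In the cytosolic synthetases the medians were 0.29 in vitro and 0.52 in vivo, with 13 of 16 larger in vivo. In the cap-binding group they were 0.27 in vitro and 0.29 in vivo, and in eIF3 0.37 in vitro and 0.40 in vivo.

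**Figure D4:**
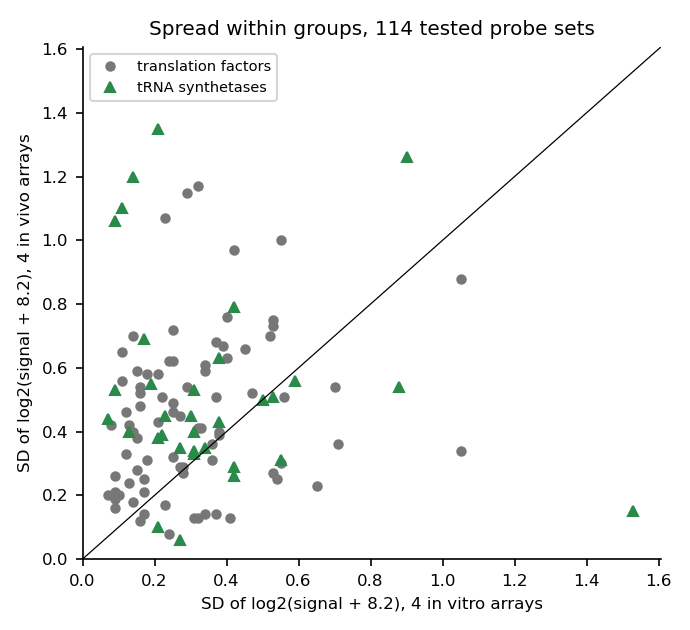
SD of log2(signal + 8.2) over the 4 in vitro arrays (horizontal axis) against that over the 4 in vivo arrays (vertical axis) for the 114 tested members (circles for translation factors, triangles for tRNA synthetases), with the line of equal spread. The in vivo SD is larger at 84 of them, and the medians are 0.28 in vitro and 0.43 in vivo.

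An order of the in vivo arrays recurred in part of the members. Replicates 1 and 3, the arrays with the lower EEF1A1 ratios of 2.70 and 2.72, were both above replicates 2 and 4 at 48 of 114 members (42.1%), against 25.5% of all tested probe sets. They were both below at 16 members (14.0%), against 18.3% of all. The first order held at 11 of 16 cytosolic synthetase probe sets, 11 of 22 of eIF3, 11 of 22 of the eIF2 group and 5 of 17 of the cap-binding group. It held at 5 of 17 of the mitochondrial synthetases (29.4%), 3 of 11 of the elongation group (27.3%) and 2 of 9 of the other initiation factors (22.2%), near the share over all. These are counts within 1 group of 4 pools, with several probe sets for some genes, and carry no test. The order was picked from these same arrays, and the EIF5, SARS1 and KARS1 probe sets that showed it are among those counted.

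With the EEF1A1 ratio as a covariate in the same limma fit, 4 members passed (3.51% of 114), against 1.14% of all tested probe sets. All 4 had lower signals in vitro, against 0.679% of all. They were 3 probe sets of EIF5, with log2 fold changes of -1.42, -1.37 and -1.06 (limma adjusted p = 0.0126, 0.0194 and 0.0455), and SARS1 with -1.02 (limma adjusted p = 0.0363). That fit called 302 probe sets in all. The ratio ran from 3.59 to 4.91 in vitro and from 2.70 to 12.8 in vivo, so its slope rested mostly on the in vivo arrays. In the covariate fit with 1 array left out, an alternative added after seeing the data, the number of members that passed ran from 0 without in vivo replicate 3 to 9 without in vivo replicate 1. It was 1 without in vivo replicate 4, 2 in 4 fits and 3 in 1. EIF5 at MmugDNA.38442.1.S1_s_at passed in 7 of these 8 fits, with a log2 fold change of -1.17 and a limma adjusted p of 0.0778 in the fit without in vivo replicate 3. The other EIF5 probe sets passed in 5 and 1 of the 8. SARS1 passed in 3 of the 8, with -0.95 and a limma adjusted p of 0.127 when in vivo replicate 3 was left out. Under the other alternatives, which lack the covariate, neither gene passed, and the adjusted p ran up to 0.683, 0.638 and 0.811 for the EIF5 probe sets and up to 0.656 for SARS1. KARS1 had -0.60 at its brightest probe set with the covariate (limma adjusted p = 0.214), against -0.33 without it. Beyond this covariate, which mixes transcript coverage with probe set type, the part of coverage in the members' values was not tested.

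**Figure D5:**
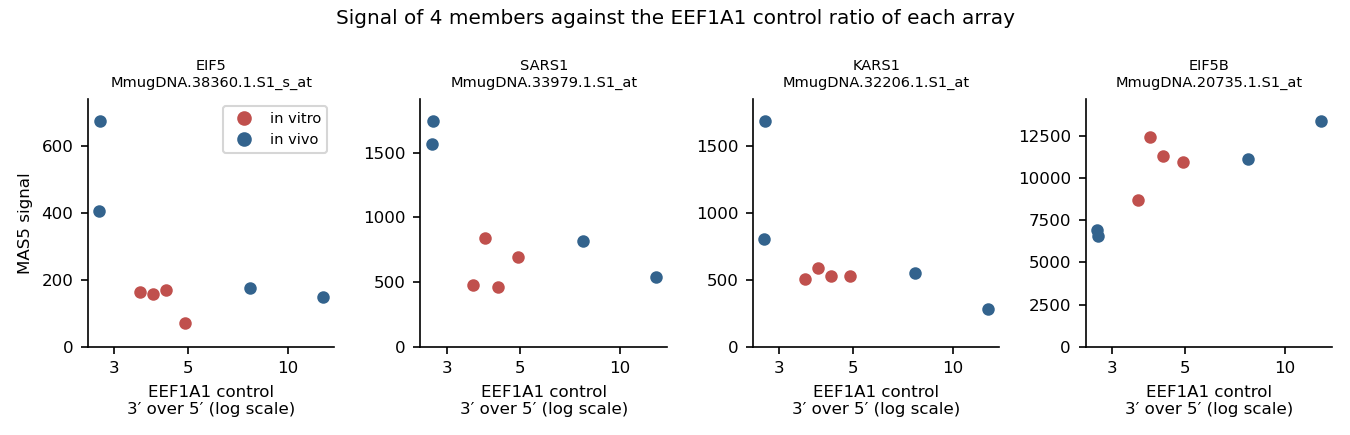
MAS5 signal of EIF5, SARS1, KARS1 and EIF5B at 1 probe set each (vertical axes from 0) against the 3′ to 5′ ratio of the EEF1A1 control on the same array (log axis). In vivo replicates 1 and 3, at ratios of 2.70 and 2.72, are the highest arrays for EIF5, SARS1 and KARS1 and the lowest for EIF5B.

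The 26 member probe sets that were not tested were dim, and 8 of them were at or below background on all 8 arrays. EIF5A2, a second eIF5A gene, and EIF2AK3 had no tested probe set. At one EIF5A2 probe set the signals were 9.40, 28.4, 0.800 and 19.2 in vitro, above background on 1 array, against 31.4, 27.4, 39.3 and 49.2 in vivo, above background on 4. A FARS2 probe set, for the mitochondrial phenylalanine enzyme, ran from 12.2 to 42.2 in vitro, above background on 3 arrays, and from 6.90 to 10.5 in vivo, above background on none. The brighter, tested FARS2 probe set went the other way, with 208 ± 19.1 in vitro and 251 ± 67.2 in vivo (log2 fold change -0.23). A dim EIF3F probe set ran from 3.0 to 12.6 in vitro and from 14.5 to 28.3 in vivo. In a fit without the brightness filter none of the 140 members passed (smallest limma adjusted p = 0.390).

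Other genes of translation, outside the symbol rule, gave 0 calls in either direction among 43 tested at their brightest probe sets. Of 12 regulators around mTOR, the kinase that links nutrients to initiation, RICTOR averaged 1032 ± 205 in vitro and 709 ± 132 in vivo (log2 fold change 0.53, limma adjusted p = 0.374). MLST8 had -0.62 and TSC1 0.41. Of 6 genes of the integrated stress response, ATF4, the transcription factor that induces synthetase genes when eIF2 is phosphorylated, had 2002, 1410, 1383 and 1385 in vitro, against 2842, 1745, 3545 and 1160 in vivo. Its target ASNS averaged 160 ± 63.2 in vitro and 238 ± 68.0 in vivo, and TRIB3 had a log2 fold change of 0.64. Both ATF4 and ASNS overlapped between groups, with limma adjusted p-values of 0.598 and 0.520.

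Of 5 poly(A)-binding genes, PAIP2, an inhibitor of the poly(A)-binding protein, had 498, 583, 509 and 484 in vitro, against 992, 655, 2757 and 490 in vivo (log2 fold change -0.90, limma adjusted p = 0.440). The oocyte form PABPC1L had -0.62 and PABPC3 -0.23. Among 6 partners of the synthetases, FARSB, a subunit of the cytosolic phenylalanine enzyme, averaged 591 ± 42.5 in vitro and 818 ± 224 in vivo, AIMP1 had -0.47 and AIMP2 0.18. Of 3 termination and rescue genes, HBS1L had -0.67, MCTS1 0.08 and the release factor gene ETF1 0.02. Of 11 mitochondrial translation factors, GFM1, an elongation factor, averaged 2367 ± 473 in vitro and 1612 ± 554 in vivo (limma adjusted p = 0.383), MTRF1L had -0.76 and TUFM -0.32.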

How the data were processed

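Pools of 4 oocytes were amplified in 2 rounds and hybridised to single-colour Affymetrix arrays, per the labels' protocols. The deposited values are linear intensity signals that the authors computed with MAS5, whose version is not given in the sources used here. All 52865 probe sets were read, and 99 controls were left out of the tests. Platform symbols named the members, and the gene identifiers of 139 of 140 were found in the RefSeq table of T2T-MMU8v2.0. No coordinates are given.

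Values were taken as log2(signal + 8.2), the 25th percentile of all signals, which shrinks the fold changes of dim probe sets. The test took in probe sets above the 50th percentile of mean signal and used limma 3.58.1 in R 4.3.3 (lmFit, then trended eBayes) on the difference of in vitro minus in vivo, with Benjamini-Hochberg adjustment over 26378 probe sets. The fit was checked on simulated data. Control ratios were compared by exact permutation.

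Members and lists were chosen with earlier results of these data known. Named were all members that passed, the 4 genes of smallest p per role group, up to 10 non-overlapping members per direction with an unadjusted p under 0.05, fixed genes, and up to 3 genes per further list. KARS1, EIF4G2, EIF3F, GARS1, FARS2 and EIF5A2 lie outside this rule, and their values were known when they were picked. Alternatives were other pseudocounts, filters, normalizations and variance models, a replicate block, the EEF1A1 covariate, and each array left out.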

Additional observations from a re-analysis of the deposited data

Results flagged for a closer look

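Of the 70 groups of 4 arrays examined, at 35 named probe sets on the log2 scale, 3 held an array whose gap to the nearest other array passed Dixon's 95% critical value. Chance gives about 1 in 20 such groups. EIF5 had 71.5 on in vitro replicate 2, against 158 to 169 on the other in vitro arrays. EIF4G3, a scaffold of the cap-binding complex, had 685 on in vivo replicate 1, against 352 to 369 on the other in vivo arrays. NARS2 had 1049 on in vivo replicate 3, against 491 to 546 on the other in vivo arrays.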

How the results depend on the processing

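The number of members that passed was 0 under all of the 20 alternatives except the EEF1A1 control ratio as a covariate, where it was 4. With the covariate kept and 1 array left out, which was added after seeing the data, it ran from 0 to 9. The calls over all probe sets ran from 125 to 1035 in those fits. Of 34 tested named probe sets, 33 had the same sign in every alternative fit that included them. EIF4E, at -0.18, reached from -0.41 without in vitro replicate 3 to 0.11 without in vitro replicate 4. The median log2 fold change of members was -0.10 and ran from -0.16 to -0.01 over the alternatives, with -0.01 in the fit without in vivo replicate 3. The count over all probe sets was 39, against 7 without the intensity trend, 88 with array weights and 302 with the covariate, and it ran from 19 to 104 with an array left out (19 without in vitro replicate 1, 104 without in vivo replicate 4). Members whose groups did not overlap numbered 6 with all arrays and from 8 to 18 with an array left out. Fewer arrays have to stand apart in those fits, and the share over all tested probe sets was not counted there. The cause of the other changes was not tested. The replicate block gave 44 calls over all probe sets and 0 among members. Same-numbered arrays deviated with correlations from -0.04 to 0.01, so the numbers were not taken as pairs. At 26 dim members the signal over background limits any comparison.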
